A study of Arabidopsis thaliana with 6 samples.

Results

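The stress-associated proteins (SAPs) of Arabidopsis thaliana are a family of small zinc finger proteins, followed here by 10 of its loci: SAP12 (also named PMZ), SAP13, SAP11, SAP5, SAP10, SAP1, SAP2, SAP3, SAP4 and SAP6. They were chosen by family membership while their H2O2 minus mock differences on these same arrays were already known, and these values are therefore given as descriptions without a test. Of the 10 loci, 8 had a probe set among the 21430 of the table, each probe set standing for 1 locus. SAP1 (AT1G12440) and SAP11 (AT2G41835) were not analysed here.

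All seedlings were wild-type Columbia-0, grown for 7 days in liquid medium with sucrose. The H2O2 group then spent 24 h with 10 mM hydrogen peroxide, a reactive oxygen species, and the mock group spent the same time with an equal volume of water. Each group had 3 replicates, each a pool of material from 4 to 5 plants on its own Affymetrix array, so the spread between single plants cannot be seen. Whether the replicates were separate cultures is not in the labels. The p-values given further on thus cover only pool-to-pool spread, part of which may be technical.

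SAPs carry the zinc-binding domains A20 and AN1, in different combinations. A20 is named after a ubiquitin-editing protein of animals and can bind ubiquitin, the small protein tag that marks other proteins for the proteasome. AN1 proteins of animals and yeast associate with the proteasome and with the ATPase CDC48/p97, which unfolds tagged proteins. In plants many SAP genes are known for higher transcript levels under heat, drought, salt, metals and oxidants, and several SAPs increase stress tolerance when overproduced. SAP12 has a pair of AN1 domains, SAP13 has AN1 domains followed by C2H2 zinc fingers, and SAP2, SAP3, SAP4, SAP5, SAP6 and SAP10 are A20/AN1 proteins.

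Values are log2 GCRMA values, a scale on which 1 unit is a 2-fold change. The medians of the 6 arrays lay between 5.66 and 5.74. Pearson correlations across probe sets were 0.995 to 0.997 within groups and 0.951 to 0.958 between groups. Genes are not independent replicates, and with so few arrays every value has limited precision. The labels give leaf as the tissue but seedling as the source. Of the 5 leaf and photosynthesis markers sought, the 2 in the table were measured at high values, RCA at 12.52 in H2O2 and 12.81 in mock, and GLDP1 at 9.85 in H2O2 and 10.11 in mock. All 5 root markers were measured as well, among them PYK10 at 11.96 in H2O2 and 12.02 in mock, so root transcripts were present. The 3 seed markers and the 1 pollen marker in the table lay below the level used as a filter on low values (3.79).

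Across the measured SAP genes, 7 of 8 had higher values in H2O2 on all 3 arrays than in mock on any array, and SAP4 had lower values. Among all 15001 probe sets above the filter, the groups did not overlap for 67.2%, with H2O2 higher for 26.6% and lower for 40.7%. As the genes were chosen with this contrast in view, nothing is read from their count. Their differences ran from -0.20 to 7.14 on the log2 scale with a median of 0.63, beside a median of -0.10 over all 15001. At least 2-fold higher values were found for 3 of the 8 (SAP12, SAP3 and SAP10), against 7.65% of all probe sets, and none was at least 2-fold lower, against 4.15%.

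All 8 genes were above the filter level of 3.79 in their mean over the 6 arrays. SAP12 was above it only through its H2O2 arrays, with a mock mean below that level, while the other 7 were above it in both groups. Values of different probe sets are not comparable amounts of transcript, so the SAP genes are compared with each other only by their differences between the groups. No SAP locus shared its values with another locus, whereas 221 loci of the table did.

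SAP12 (AT3G28210), whose protein is known to change conformation with its redox state in vitro, had by far the widest difference of the family. Its log2 values were 10.36, 10.16 and 10.56 on the H2O2 arrays, against 3.25, 3.30 and 3.11 on the mock arrays. The lowest H2O2 array lay 6.86 above the highest mock array. The means were 10.36 ± 0.20 in H2O2 and 3.22 ± 0.10 in mock (SD, n = 3 each), a difference of 7.14 (SE 0.11) or 141-fold. By size this was the increase ranked 5 among 15001 probe sets. The mock values lie near the bottom of the scale, so the size of the fold depends on how low values are treated. With all values below 3.74 raised to that level, the fold of SAP12 was 98.1 in place of 141. Its H2O2 arrays also had the largest SD among the group SDs of the 8 genes, which ran from 0.02 to 0.20.

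SAP13 (AT3G57480), the other measured gene of the AN1 class, is known for greater tolerance of toxic metals when overproduced. Its values were 6.40, 6.43 and 6.47 in H2O2, against 5.97, 5.99 and 6.09 in mock. The groups were apart by 0.31 at their closest arrays, and each group was narrow. The means were 6.43 ± 0.03 in H2O2 and 6.02 ± 0.06 in mock (SD, n = 3 each), which is a difference of 0.42 (SE 0.07), or 1.34-fold. The genes of the AN1 class thus stood 6.72 log2 units apart in their differences, 7.14 for SAP12 and 0.42 for SAP13. With low values raised as above, they stood 6.20 apart.

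**Figure D1:**
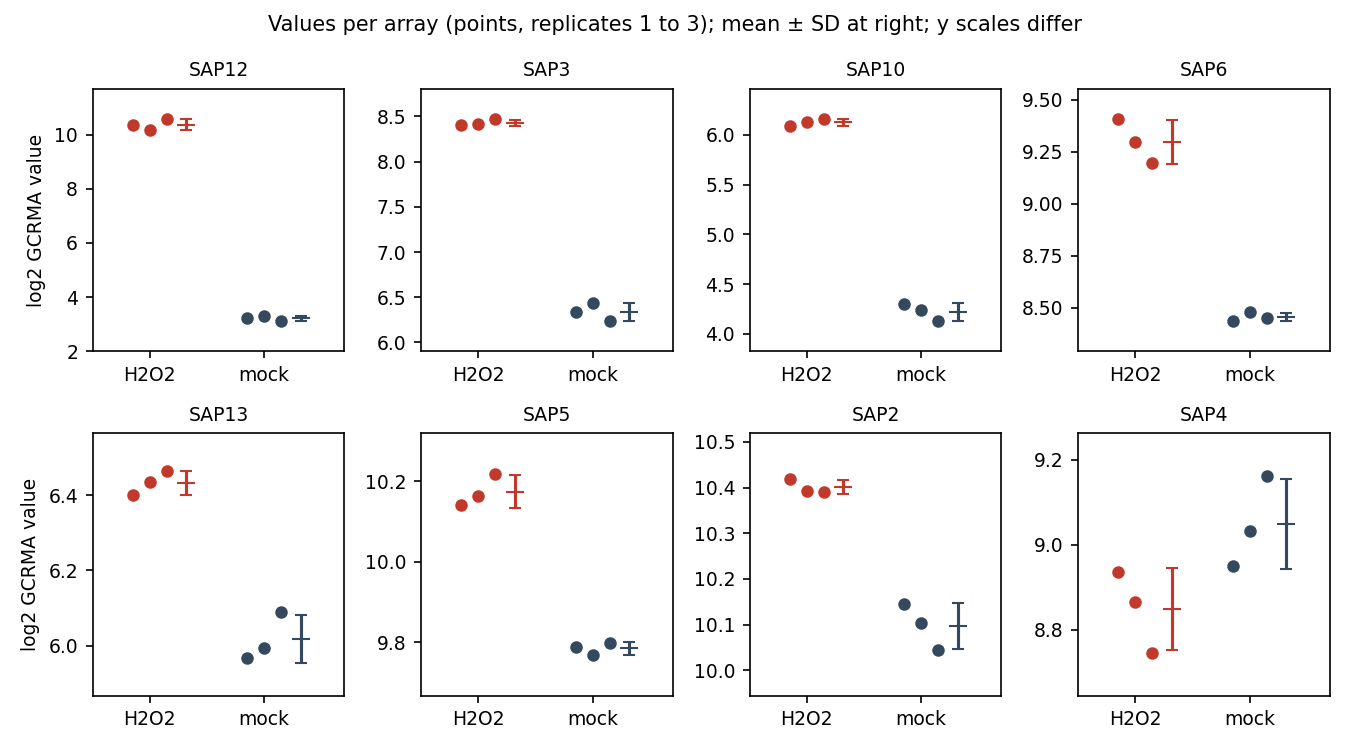
Log2 GCRMA values (y axis, a separate scale per panel) of the 8 measured SAP genes on the 3 H2O2 and the 3 mock arrays, with points for arrays and bars for mean ± SD. SAP12 stands at 10.16 to 10.56 in H2O2 and 3.11 to 3.30 in mock, while the groups of SAP4 nearly touch.

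Among the A20/AN1 genes, SAP3 and SAP10 had the widest differences. SAP3 (AT2G27580) had values of 8.40, 8.42 and 8.47 in H2O2, against 6.33, 6.44 and 6.24 in mock. The H2O2 arrays were nearly equal and all lay at least 1.96 above the mock arrays. Means were 8.43 ± 0.03 in H2O2 and 6.34 ± 0.10 in mock (SD, n = 3 each), a difference of 2.09 (SE 0.08) or 4.27-fold.

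SAP10 (AT4G25380), known for greater tolerance of metals and high temperature when overproduced, had values of 6.09, 6.13 and 6.16 in H2O2, against 4.30, 4.24 and 4.13 in mock. Here too the H2O2 arrays were close together, with no overlap and a gap of 1.79. The means of 6.13 ± 0.03 in H2O2 and 4.22 ± 0.09 in mock (SD, n = 3 each) differed by 1.90 (SE 0.08), or 3.74-fold. Between same-numbered arrays the difference was 1.79 to 2.03 for SAP10 and 1.98 to 2.23 for SAP3, so the ranges of both genes overlap. Within each of the 3 same-numbered pairs SAP3 had the wider difference, by 0.09 to 0.28.

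SAP6 (AT3G52800), a further A20/AN1 gene, followed with values of 9.41, 9.30 and 9.19 in H2O2, against 8.44, 8.48 and 8.45 in mock. The mock arrays were nearly equal, the H2O2 arrays were more spread, and the gap between the groups was 0.72. The difference of the means, 9.30 ± 0.11 in H2O2 and 8.46 ± 0.02 in mock (SD, n = 3 each), was 0.84 (SE 0.08), which is 1.79-fold.

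SAP5 (AT3G12630) encodes an A20/AN1 protein with ubiquitin ligase activity in vitro. It had values of 10.14, 10.16 and 10.22 in H2O2, against 9.79, 9.77 and 9.80 in mock. All H2O2 arrays were above all mock arrays, and the difference was small but wider than the spread within either group. It came to 0.39 (SE 0.07) or 1.31-fold, from means of 10.17 ± 0.04 in H2O2 and 9.79 ± 0.02 in mock (SD, n = 3 each).

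SAP2 (AT1G51200) had the smallest positive difference. Its values were 10.42, 10.39 and 10.39 in H2O2, against 10.15, 10.10 and 10.04 in mock, with a gap of 0.25 between the groups. The means were 10.40 ± 0.02 in H2O2 and 10.10 ± 0.05 in mock (SD, n = 3 each), and the difference was 0.30 (SE 0.07) or 1.23-fold. Between same-numbered arrays SAP13 differed by 0.38 to 0.44, SAP5 by 0.35 to 0.42 and SAP2 by 0.27 to 0.35. The ranges of SAP13 and SAP5 overlap, and those of SAP5 and SAP2 lie next to each other.

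SAP4 (AT2G36320) was the 1 gene with lower values in H2O2, at 8.94, 8.87 and 8.75, against 8.95, 9.03 and 9.16 in mock. The highest H2O2 array and the lowest mock array were only 0.01 apart. The means of 8.85 ± 0.10 in H2O2 and 9.05 ± 0.11 in mock (SD, n = 3 each) gave a difference of -0.20 (SE 0.09). Between same-numbered arrays it ranged from -0.01 to -0.42. The direction of SAP4 is not settled, since its groups overlapped with quantile normalization and its difference was 0.013 when arrays were centred on 8 reference genes.

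**Figure D2:**
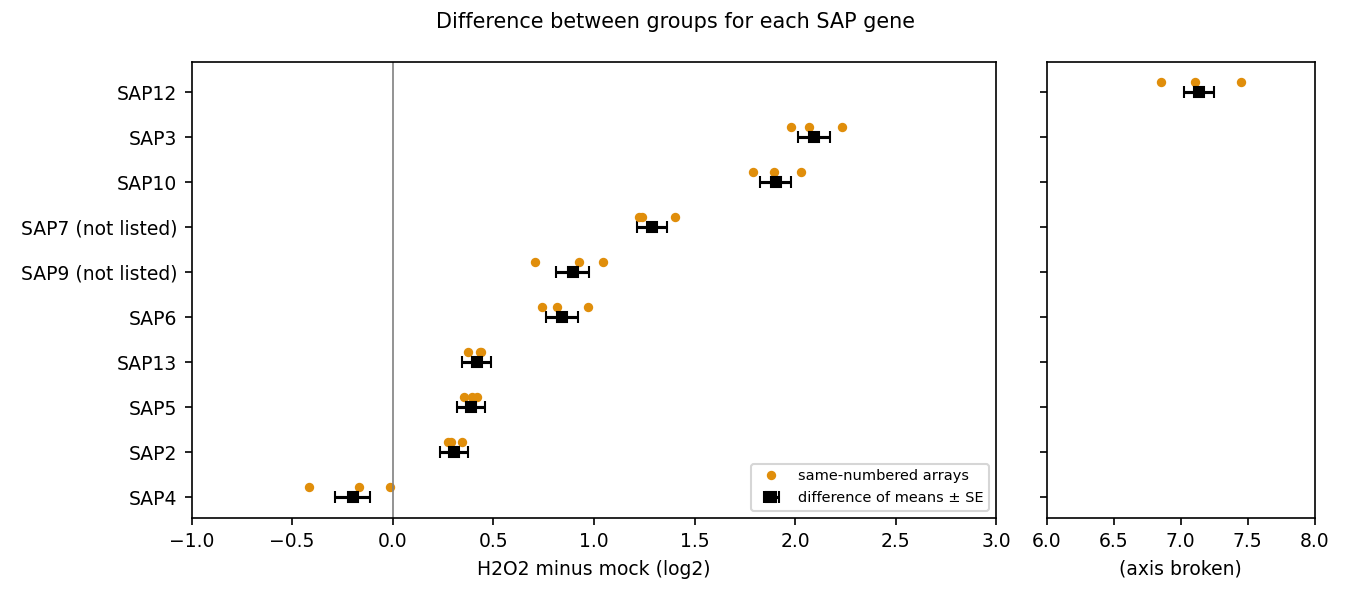
H2O2 minus mock differences (x axis, log2, broken between the panels) of the 8 measured SAP genes and of SAP7 and SAP9, with squares for the difference of means ± SE and small points for same-numbered arrays. SAP12 stands at 7.14, SAP3 and SAP10 near 2, and SAP4 at -0.20.

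By domain class, the 6 A20/AN1 genes had differences from -0.20 to 2.09 with a median of 0.62. Of these, 5 were higher and 1 lower without overlap, beside 26.6% and 40.7% of all probe sets. Both AN1 genes were higher, at 0.42 and 7.14. Nothing is read from these counts by class. No array was high or low in every gene. H2O2 replicate 3 was the highest of its group in 5 of the 8 genes and the lowest in 3, and H2O2 replicate 1 was the highest in 3 and the lowest in 4. In the mock group, replicate 3 was the highest in 3 and the lowest in 4.

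The family has 4 further loci that are not among the 10 listed. The 2 with a probe set, SAP7 and SAP9, also encode A20/AN1 proteins, and SAP8 and SAP14 were not analysed here. SAP7 (AT4G12040) had values of 9.73, 9.80 and 9.85 in H2O2, against 8.50, 8.56 and 8.44 in mock. SAP9 (AT4G22820), whose protein is known to bind the ubiquitin shuttle RAD23D, had values of 8.43, 8.59 and 8.60 in H2O2, against 7.72, 7.66 and 7.55 in mock. Both were higher on all H2O2 arrays, by 1.29 (SE 0.07) for SAP7 and 0.89 (SE 0.08) for SAP9. These lie between SAP10 and SAP6, and the difference of SAP9 is within the same-numbered range of SAP6, which was 0.74 to 0.97. Over the 10 measured family genes, 9 were higher and 1 lower without overlap, beside 26.6% and 40.7% of all probe sets. Their median difference was 0.87, beside -0.10 over all 15001. Nothing is read from this count either.

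The arrays were scaled by the authors, and the differences depend on that scaling. Centring each array on 8 genes commonly used as references (ACT2, PP2AA3, TIP41L, SAND, YLS8, UBC21, RHIP1 and AT4G33380) shifted the overall median difference upwards by 0.21 log2 units. As deposited, 4 of these reference genes were themselves called lower in H2O2 and none higher, beside 36.5% and 23.9% of all probe sets. The calls of PP2AA3 and ACT2 were lost with quantile normalization. That of PP2AA3 was also lost without any 1 array other than mock replicate 2 (limma adjusted p of 0.0502 to 0.0956). That of ACT2 was also lost without mock replicate 1 (limma adjusted p = 0.0503). Under the reference gene centring 65.4% of all called probe sets were higher, in place of 39.5%. This centring moves the difference of every gene by the same amount, so it cannot change the order of the SAP genes. The differences were then 7.35 for SAP12, 2.31 for SAP3, 2.12 for SAP10 and 1.05 for SAP6. Those of SAP13, SAP5, SAP2 and SAP4 were 0.63, 0.60, 0.52 and 0.013. Quantile normalization placed SAP5 at 0.43 and SAP13 at 0.40, which turns round their order.

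**Figure D3:**
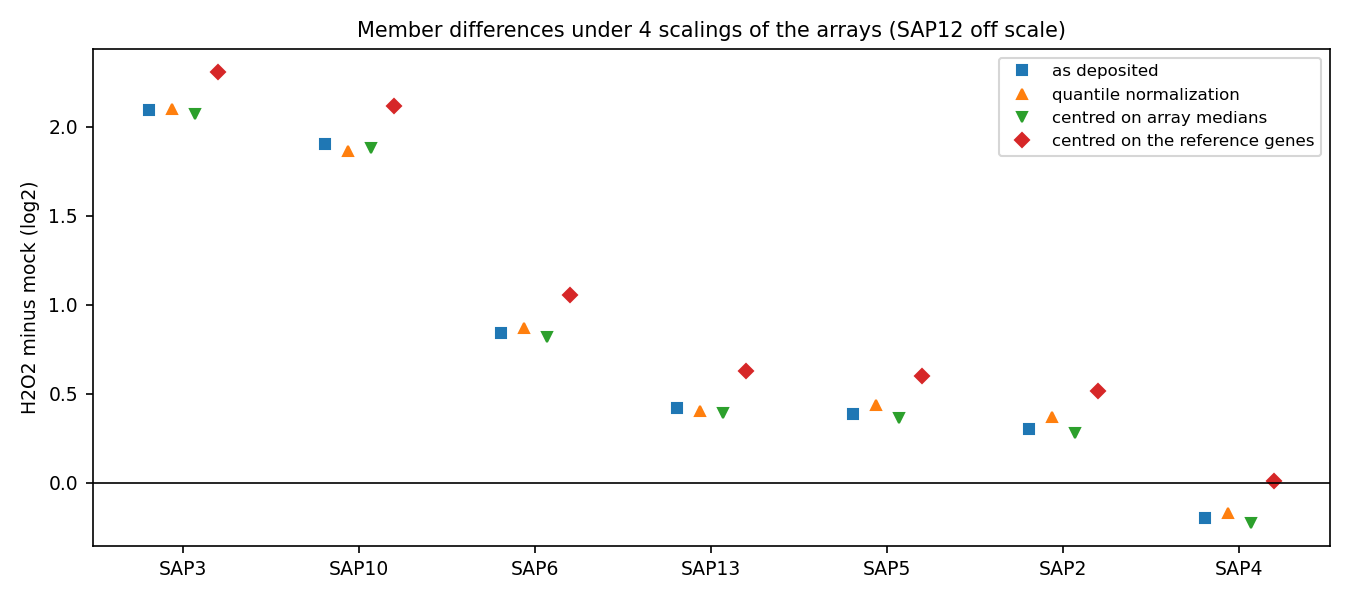
H2O2 minus mock differences (y axis, log2) of 7 SAP genes under 4 scalings of the arrays, with 1 symbol per scaling and SAP12 off scale. Centring on the reference genes lifts every gene, and brings SAP4 to 0.013.

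The bulk samples hold several organs, and fewer cells of a type cannot be told apart from less RNA per cell. Of the 5 root markers, 4 were called lower in H2O2 and PYK10 was not, while 36.5% of all probe sets were called lower. The summed level of the 5 was 12.00 to 12.20 on the log2 scale in H2O2, against 12.34 to 12.43 in mock. Most of this sum came from PYK10, whose values were far above those of the other root markers. The root cell wall gene PRP3 fell by 2.08, XTH14 fell by 1.76 and EXP7 fell by 1.57. The root markers did not move alike, as CASP1 fell by only 0.30 and PYK10 differed by -0.05. Both measured leaf markers were also called lower, with a summed level of 12.66 to 12.83 in H2O2, against 12.94 to 13.07 in mock. Most of that sum came from RCA. As values of different probe sets are not comparable amounts, neither sum measures the share of an organ. The calls of CASP1 and of both leaf markers were lost with quantile normalization and with the reference gene centring. Those of CASP1 and GLDP1 were also lost without a filter (limma adjusted p of 0.059 and 0.054). That of CASP1 was also lost without any 1 array other than H2O2 replicate 1 (adjusted p of 0.073 to 0.14), that of GLDP1 likewise (0.051 to 0.14), and that of RCA without mock replicate 2 (0.052). The part of either organ in the SAP differences was not tested.

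For the 3 SAP genes with the widest differences, the probe sets with the most similar values were sought by the root mean square distance over the 6 arrays. This distance depends on the signal level of each probe set as well as on its difference, so a gene with the same difference at another level is not found, and the neighbours are a description of the table only. Nearest to SAP12 were the cytochrome P450 gene CYP81D8 (AT4G37370, distance 0.25), AT5G51440 (0.28), the mitochondrial small heat shock protein gene HSP23.6-MITO (AT4G25200, 0.48) and the glutathione transferase gene GSTU25 (AT1G17180, 0.48). CYP81D8 averaged 10.16 ± 0.09 in H2O2 and 3.44 ± 0.20 in mock, and AT5G51440 averaged 10.55 ± 0.14 in H2O2 and 3.48 ± 0.15 in mock (SD, n = 3 each). Their differences were 6.72 and 7.07, those of HSP23.6-MITO and GSTU25 6.52 and 6.23. Like SAP12, these 4 genes had mock means below the filter level of 3.79, so they were above it only through their H2O2 arrays and their differences are uncertain.

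SAP3 was most like AT3G04000 (distance 0.08), CRL1 (AT2G33590, 0.17), the ABC transporter gene ABCC2 (AT2G34660, 0.17) and the aldehyde dehydrogenase gene ALDH2B7 (AT1G23800, 0.17). AT3G04000 averaged 8.37 ± 0.10 in H2O2 and 6.39 ± 0.04 in mock (SD, n = 3 each). SAP10 was most like AT5G17350 (0.13), the glutamate receptor-like gene GLR1.3 (AT5G48410, 0.14), AT3G26910 (0.17) and AT1G77570 (0.17). GLR1.3 averaged 6.13 ± 0.09 in H2O2 and 4.20 ± 0.14 in mock (SD, n = 3 each).

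Since SAPs are known from ubiquitin-dependent protein turnover, 3 lists of genes that handle ubiquitin were set beside them, with limma's test over all 15001 probe sets. In this test 60.4% of all probe sets passed an adjusted p under 0.05, 23.9% as higher and 36.5% as lower. The counts below cover list members above the filter on low values, and the filter can let a gene in through the group where it is high. The lists were chosen with earlier results of these data known. Their counts and p-values are thus given as descriptions, and nothing is read from the counts.

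Genes of ubiquitin and of the enzymes that activate and transfer it were mostly higher in H2O2. The list had 20 loci, of which 14 had a probe set and 13 were above the filter. Of the 13, 10 rose, none fell and 3 did not pass, and their median difference was 0.45. UBC11 (AT3G08690), a ubiquitin-conjugating enzyme gene, averaged 9.56 ± 0.05 in H2O2 and 7.86 ± 0.11 in mock (SD, n = 3 each), a rise of 1.69 (limma adjusted p = 8.63e-07). The polyubiquitin genes UBQ14 (AT4G02890) and UBQ11 (AT4G05050) rose by 1.33 (adjusted p = 1.09e-05) and 1.00 (adjusted p = 4.19e-05). Ubiquitin genes hold near-identical coding repeats, so probe sets of different loci may share signal, and this was not tested. UBA1, UBC8 and UBC28 had differences of 0.03, 0.13 and 0.07 and did not pass, but UBC8 and UBC28 passed as higher with the reference gene centring (0.34 and 0.28), and UBC28 with quantile normalization (0.22). The riser with the smallest difference, UBA2 (0.26), lost its call without mock replicate 2, mock replicate 3, H2O2 replicate 1 or H2O2 replicate 3 (limma adjusted p of 0.052 to 0.096).

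Genes of CDC48 and its cofactors were divided. Of 17 loci 16 were measured and above the filter, and of these 6 rose, 2 fell and 8 did not pass, with a median difference of 0.07. CDC48B (AT3G53230), a gene for the unfolding ATPase, averaged 10.55 ± 0.22 in H2O2 and 5.40 ± 0.19 in mock (SD, n = 3 each), a rise of 5.15 (limma adjusted p = 2.99e-08). Its paralogue CDC48A (AT3G09840) had a mean of 11.73 in H2O2 and 10.62 in mock and rose by 1.12 (adjusted p = 8.34e-06), a gene named here after its values were seen. PUX8 (AT4G11740) and PUX5 (AT4G15410), which encode CDC48-binding proteins, rose by 1.33 (adjusted p = 5.34e-06) and 1.16 (adjusted p = 2.50e-06). The fallers were PUX3 and PUX11, by 0.35 and 0.31. Neither was called lower with the reference gene centring, where 10 of the list rose and none fell. Under that centring 5661 of all 15001 probe sets were called higher and 3000 lower. The call of PUX11 was also lost without mock replicate 2, mock replicate 3 or H2O2 replicate 1 (limma adjusted p of 0.053, 0.054 and 0.053). Among the risers, UFD1 (AT2G21270, difference 0.31) lost its call without mock replicate 1, mock replicate 3 or H2O2 replicate 1 (adjusted p of 0.060, 0.051 and 0.066).

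Genes of ubiquitin shuttles, which carry tagged proteins to the proteasome, and of proteasome-associated ubiquitin factors moved in both directions. Of 11 loci 9 were measured and above the filter, and 4 rose, 3 fell and 2 did not pass, with a median difference of 0.15. RPN10 (AT4G38630), a ubiquitin receptor of the proteasome, rose by 0.86 (limma adjusted p = 3.13e-05), the shuttle gene DDI1 (AT3G13235) by 0.70 (adjusted p = 8.50e-05) and the deubiquitinase gene UBP6 (AT1G51710) by 0.57 (adjusted p = 0.000375). Among the fallers were the shuttle genes RAD23B, which fell by 0.27, and RAD23C, which fell by 0.55. RAD23D, the shuttle known to bind SAP9, averaged 9.62 in H2O2 and 9.47 in mock and did not pass (difference 0.14, adjusted p = 0.12). With the reference gene centring, 6 of this list rose and 2 fell, beside 5661 of all 15001 probe sets called higher and 3000 lower. RAD23D then passed as higher (0.35, adjusted p = 0.0049) and RAD23B did not pass, a call it also lost without mock replicate 2 (adjusted p = 0.072). UBP7, a riser with a difference of 0.26, lost its call without mock replicate 1 (adjusted p = 0.051) or H2O2 replicate 1 (adjusted p = 0.057).

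**Figure D4:**
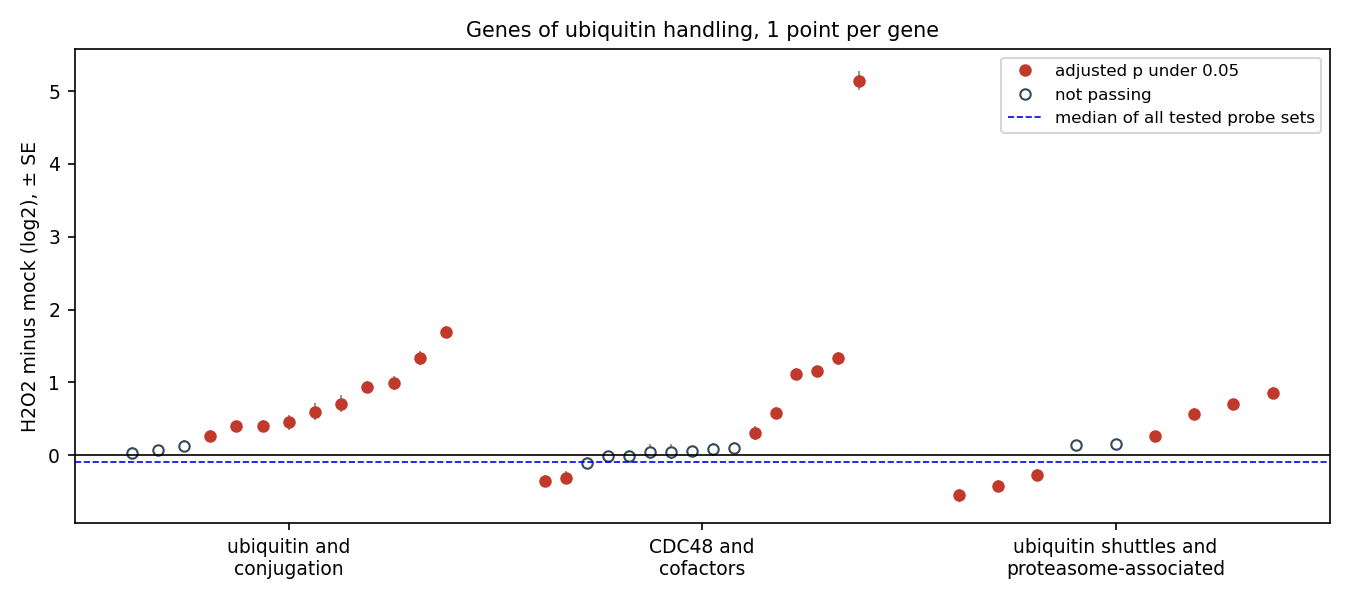
H2O2 minus mock differences (y axis, log2, ± SE) of the genes of the 3 lists, with filled points for an adjusted p under 0.05 and open points for genes that did not pass. CDC48B stands at 5.15, apart from all other genes of the lists, and the dashed line marks the median of all tested probe sets at -0.10.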

How the data were processed

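The deposited table holds log2 values made by the authors with GCRMA, per the submitters' processing notes (background correction by probe sequence, normalization between arrays and summary per probe set). The scale is inferred from their range, 1.55 to 13.2. Not stated in the labels are the version of GCRMA, the array type and how probes were grouped. Symbols were taken from RefSeq (assembly TAIR10.1), which holds 21231 of the loci; its coordinates were not used.

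A filter on low values removed 6429 probe sets whose average over both groups was below the 30th percentile (3.79). The others were fitted in R 4.3.3 with limma 3.58.1, using lmFit and eBayes for the two-sided contrast of H2O2 over mock, with Benjamini-Hochberg adjustment over all 15001 and a threshold of 0.05. The SE is limma's moderated one. The fit was tested on simulated data. Figures were drawn with matplotlib 3.10.9.

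The SAP loci, lists and tests were chosen with earlier results of these data known. Named were all SAP loci, up to 3 genes with the largest called change per list, 4 nearest probe sets for each of 3 SAP genes, and the reference genes. Other list members (those that fell, did not pass or lost a call, and CDC48A) were named after their values were seen. Planned searches of promoter motifs and protein features were not run, as no sequences were used here, and 1 gene of the lists is counted but not reported here by name.

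Replicate numbers are shared by the groups in the labels. Deviations from the group means correlated at 0.19, 0.21 and 0.21 for same-numbered arrays. The numbers may thus pair the samples, but these values alone do not settle it. The SEs and calls given above come from the fit without pairing, and a blocked fit on the replicate number was an alternative. The others were 2 other filters, low values raised, 3 other scalings, a trended and robust prior, and each array left out.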

Additional observations from a re-analysis of the deposited data

How the results depend on the processing

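All 8 SAP differences kept their direction under the 14 alternatives, except that of SAP4, which was 0.013 with centring on the reference genes. The other filters, the prior and the replicate block leave these differences unchanged. Leaving out 1 array or raising low values cannot reverse a gene whose groups do not overlap. Only the 3 other scalings could thus turn a direction round. The ranges were 6.62 to 7.35 for SAP12, 2.04 to 2.31 for SAP3, 1.86 to 2.12 for SAP10 and -0.25 to 0.013 for SAP4. The count of SAP genes without overlap was 8 under 12 alternatives, and 7 with quantile normalization and with the reference gene centring. Only raising low values and the 3 other scalings could have lowered this count. The filters, the prior, the replicate block and leaving out 1 array cannot make separate groups overlap. With the replicate block, 9424 probe sets were called in place of 9066, and the 3 lists had 10, 8 and 7 calls, the same genes as without it. Leaving out 1 array gave 7926 to 8681 calls, 9 to 10 in the ubiquitin list, 6 to 8 in the CDC48 list and 6 to 7 in the shuttle list. Without a filter 9637 were called. With low values raised, SAP12 had the lower end of its range, since its mock signal is near the bottom of the scale.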
